A study of Mus musculus with 8 samples.

Results

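The genes described here lie on the proximal part of mouse chromosome 4. They are the genes of the count table that start below 70 Mb (GRCm38 coordinates) and average at least 0.5 CPM (counts scaled to library size) over the 8 libraries. The table holds 53465 genes, of which 15486 reach that level, and 269 of these are in the region. The region has 976 genes in the table, 539 of them with any count. The rest of chromosome 4, starting at 70 Mb or above, has 674 genes at the same level and serves as the reference. Of the 269 genes, 185 are protein coding and 69 are processed pseudogenes, and the other 15 are antisense genes, lincRNAs, other transcripts, other pseudogenes and 1 miRNA gene. Protein-coding genes hold 86.6% of the counts of the 269 and processed pseudogenes 12.4%. The region was selected on log2 CPM of each library relative to the Parental mean, with earlier results of these same data known. The rule also set Transformed 4 beside the other libraries, with the rest of chromosome 4 as reference. Every value below of Transformed over Parental, or of Transformed 4 over the others, describes that choice and tests nothing.

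Sequencing was of polyA RNA from Ba/F3, a mouse line described as immortalised pro-B cells, of C3H background, that ordinarily needs interleukin-3. There are 5 libraries of cells transformed with U2AF35(S34F), called Transformed 4 to 8, and 3 libraries of the parental line, whose U2AF35 is wild type, called Parental 1 to 3. U2AF35 helps the spliceosome to find the 3' splice site, and S34F is a change found in myeloid cancers. The sources used here do not give the promoter that drives the introduced U2AF35, the culture medium, or whether each library had its own culture or clone, so errors measure the spread between these libraries, which may be technical.

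The libraries held 36122062 to 50305573 counts. Transformed 4 and Transformed 7 stood apart from the other Transformed libraries. Between Transformed libraries, the chi-square per degree of freedom was 110 to 268 where Transformed 4 entered the pair, 136 to 268 where Transformed 7 did, and 18.0 to 26.5 among Transformed 5, 6 and 8. A lane tag puts Transformed 4, 6 and 7 with Parental 2 in lane 7, and Transformed 5 and 8 with Parental 1 and 3 in lane 6. Of 12 pro-B cell markers fixed in the marker list, Ptprc, Cd79a and Cd79b were present and 8, among them Pax5, Ebf1, Rag1 and Il7r, stayed under 0.1 CPM in every library. The 6 fibroblast markers summed to 0.0198 to 0.424 CPM in Transformed libraries and 0.117 to 0.200 CPM in Parental libraries. The 5 erythroid markers summed to 12.7 to 50.5 CPM in Transformed libraries and 51.1 to 67.1 CPM in Parental libraries, and the 5 eosinophil markers to 0.0571 to 12.3 CPM in Transformed libraries and 9.49 to 119.7 CPM in Parental libraries. The 5 neutrophil markers summed to 3.51 to 37.02 CPM in Transformed libraries and 24.8 to 38.5 CPM in Parental libraries, and the 7 T cell markers to 1.19 to 4.14 CPM in Transformed libraries and 0.779 to 1.64 CPM in Parental libraries. The 6 mast cell and basophil markers summed to 1592 CPM in Transformed 4 and 549, 647, 439 and 575 CPM in Transformed 5 to 8, against 714, 871 and 868 CPM in Parental 1 to 3. This sum was thus above the Parental range in Transformed 4 and below it in the other Transformed libraries. Gata2 made up most of the sum, and single markers differed from it. Cpa3 had 79.6 CPM in Transformed 6, against 25.8, 76.0 and 74.7 CPM in Parental 1 to 3. Hdc had 24.5, 37.6 and 28.4 CPM in Transformed 6 to 8, against 51.3, 22.9 and 18.0 CPM in Parental 1 to 3. Fcer1a had 0 counts in every library. In Transformed 4, Gata2 had 1269 CPM and Hdc 174 CPM. The 5 markers of an interleukin-3 dependent blood line summed to 6060 CPM in Transformed 4 and 3631, 2717, 1564 and 3325 CPM in Transformed 5 to 8. Parental 1 to 3 had 5435, 7095 and 7752 CPM. Csf2rb and Csf2rb2 made up most of this sum. Il3ra was instead highest in Transformed 7, Spi1 was lowest in Transformed 4, and Kit had 0 counts in every library. Transformed 4 was also the highest Transformed library for the erythroid, eosinophil and fibroblast sums. The part of these cell types in the results below was not tested.

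The region carries genes of many unrelated roles, among them the kinase gene Lyn, the receptor genes Tlr4 and Cd72, genes of RNA processing such as Ints8, and genes of protein quality control such as Vcp and Trim32. Lyn acts at the B cell and cytokine receptors of blood cells, Cd72 dampens signals of the B cell receptor, and Tlr4 recognises bacterial lipopolysaccharide. In bulk RNA, fewer cells of a type and less RNA per cell cannot be told apart.

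Of the 185 protein-coding members, 124 were matched by symbol in the RefSeq promoter table of GRCm38.p6, with 152 promoters. Each sequence runs from 250 bases before to 50 bases after a RefSeq gene start, read 5′ to 3′ on the gene's strand. Capitals mark GC boxes, the letters GGGCGG on either strand. RefSeq starts can differ from the gene coordinates given below. The Glipr2 window lies wholly downstream of the gene start given there. The 4 shown are Glipr2, the member furthest above the Parental level in Transformed 4, Ptgr1, with a large difference between Transformed 4 and the other Transformed libraries, Trim32, higher in all 5 Transformed libraries, and Cdk5rap2, the nearest protein-coding gene outside the region. They lie at chr4:43957452-43957751 on the plus strand (Glipr2), chr4:58987029-58987328 on the minus strand (Ptgr1), chr4:65604736-65605035 on the plus strand (Trim32) and chr4:70410386-70410685 on the minus strand (Cdk5rap2).
Glipr2: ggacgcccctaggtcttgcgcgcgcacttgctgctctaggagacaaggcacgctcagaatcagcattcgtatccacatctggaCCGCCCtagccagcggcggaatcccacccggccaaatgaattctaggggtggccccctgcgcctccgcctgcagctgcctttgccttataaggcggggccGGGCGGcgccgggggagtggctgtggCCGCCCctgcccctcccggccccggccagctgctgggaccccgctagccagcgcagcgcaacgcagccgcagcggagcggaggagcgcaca
Ptgr1: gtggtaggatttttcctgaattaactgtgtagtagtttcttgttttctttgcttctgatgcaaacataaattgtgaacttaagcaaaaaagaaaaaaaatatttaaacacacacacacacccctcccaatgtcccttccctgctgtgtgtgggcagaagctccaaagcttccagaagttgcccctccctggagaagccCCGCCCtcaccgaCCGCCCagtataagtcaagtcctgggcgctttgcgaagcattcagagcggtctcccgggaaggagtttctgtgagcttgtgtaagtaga
Trim32: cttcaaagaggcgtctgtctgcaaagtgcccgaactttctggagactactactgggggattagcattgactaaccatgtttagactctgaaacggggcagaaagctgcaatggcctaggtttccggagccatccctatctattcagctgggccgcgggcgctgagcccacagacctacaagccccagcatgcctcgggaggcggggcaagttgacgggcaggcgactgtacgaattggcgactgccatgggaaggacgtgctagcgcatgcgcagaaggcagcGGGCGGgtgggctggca
Cdk5rap2: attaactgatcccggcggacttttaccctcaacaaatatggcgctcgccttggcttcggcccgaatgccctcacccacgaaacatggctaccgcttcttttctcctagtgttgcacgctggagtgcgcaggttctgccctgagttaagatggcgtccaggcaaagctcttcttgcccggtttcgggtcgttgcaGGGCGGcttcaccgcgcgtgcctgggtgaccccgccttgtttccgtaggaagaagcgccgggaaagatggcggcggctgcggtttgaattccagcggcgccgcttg
The Glipr2 promoter is 70% G or C with 28 CpG pairs and 3 GC boxes, and the Ptgr1 promoter is 47% G or C with 7 CpG pairs and 2 GC boxes. Trim32 and Cdk5rap2 have 1 GC box each. The GC box was present in 67.1% of the 152 member promoters and in 35.7% of all 32851 promoters of the table, many of which belong to genes not expressed in these cells. CCAAT, searched on both strands, was present in 38.8% of the member promoters and 37.4% of all, and TATAAA in 9.87% and 13.6%. These matches are a description of letters in a window.

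The genes of the region were higher in Transformed 4, as a median, than in any other library. Their median log2 difference from the mean of the 3 Parental libraries was 0.34 in Transformed 4, which is 1.27-fold, with quartiles of 0.096 and 0.49. It was 0.0033 in Transformed 5, 0.17 in Transformed 6, 0.058 in Transformed 7 and 0.057 in Transformed 8, against -0.019, 0.018 and -0.0049 in Parental 1 to 3. In Transformed 4, 219 of the 269 genes (81.4%) were above the Parental mean. The rest of chromosome 4 had a median of -0.047 in Transformed 4, so the region exceeded it by 0.39 there. The same excess was -0.0092, 0.031, 0.085 and 0.064 in Transformed 5 to 8 and 0.020, -0.016 and 0.0067 in Parental 1 to 3. Transformed 6 had its 0.17 beside 0.14 in the rest of the chromosome, so its medians were above 0 on both sides of the limit.

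The protein-coding members carried this difference. Their median in Transformed 4 was 0.42, or 1.34-fold, with quartiles of 0.26 and 0.53, and 172 of 185 (93.0%) were above the Parental mean. Among them, 140 were higher by at least 0.25 on the log2 scale, 57 by at least 0.5 and 7 by at least 1. The 495 protein-coding genes of the rest of the chromosome had a median of -0.054 in Transformed 4. The 69 processed pseudogenes of the region had a median of 0.022 in Transformed 4, with 0.077, -0.033, -0.00021 and 0.15 in Transformed 5 to 8. Reads of a processed pseudogene can come from its parent gene elsewhere in the genome, and the sources used here do not say how multiply mapping reads were counted.

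**Figure D1:**
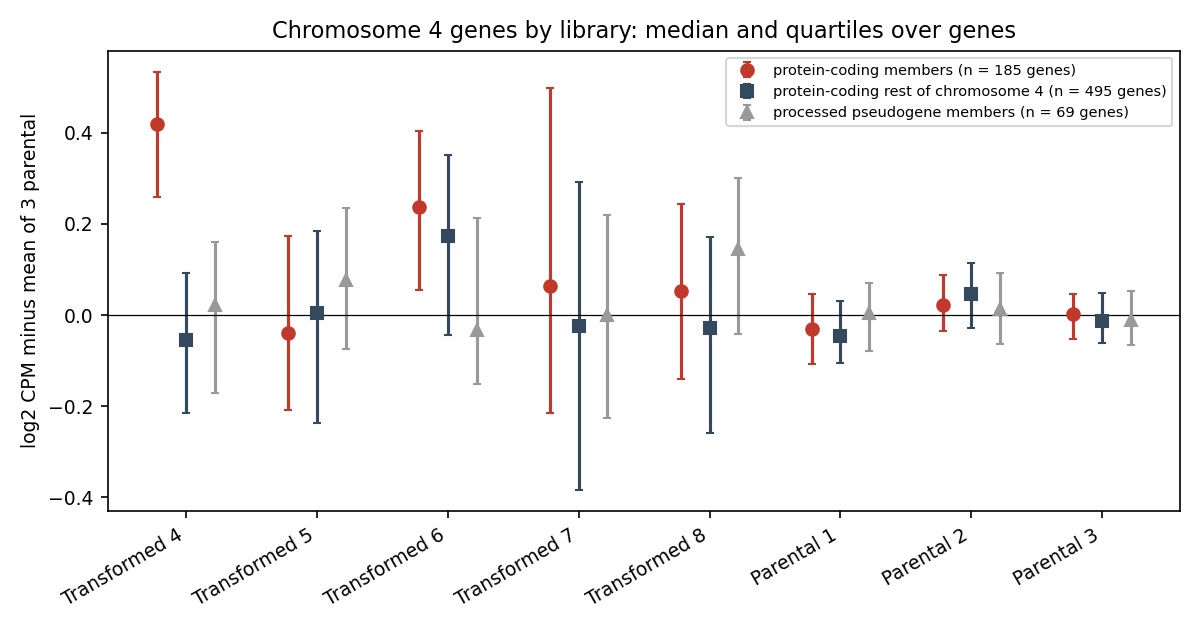
Median log2 CPM minus the mean of the 3 Parental libraries for protein-coding members, protein-coding genes of the rest of chromosome 4 and processed pseudogenes of the region, with libraries along the horizontal axis and bars for the quartiles over genes. The protein-coding members sit at 0.42 in Transformed 4, above the rest of the chromosome at -0.054.

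Within lane 7, where Parental 2 is the sole Parental library, the members had a median of 0.29 above it in Transformed 4, 0.13 in Transformed 6 and 0.011 in Transformed 7. Their excess over the rest of chromosome 4 was 0.38, 0.030 and 0.082 there. Within lane 6, against Parental 1 and 3, the excess was -0.029 in Transformed 5 and 0.060 in Transformed 8. The excess in Transformed 4 was thus 0.38 within its lane and 0.39 over all Parental libraries.

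Set beside the other Transformed libraries alone, Transformed 4 had the members higher by a median of 0.23 on the log2 scale (1.17-fold), and 193 of 269 (71.7%) were above the mean of Transformed 5 to 8. For protein-coding members the median was 0.31 (1.24-fold) and the count 154 of 185 (83.2%). The rest of chromosome 4 had a median of -0.060, and all genes at the level had 0.011. Transformed 4 was the highest of the 8 libraries for 128 of 269 members (47.6%) and 114 of 185 protein-coding ones (61.6%), against 84 of 674 genes (12.5%) in the rest of the chromosome and 18.2% of all genes at the level. It exceeded all 3 Parental libraries for 199 members (74.0%), against 173 genes of the rest (25.7%) and 34.8% of all genes. These comparisons were part of the rule that set the region, so they are a description.

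**Figure D2:**
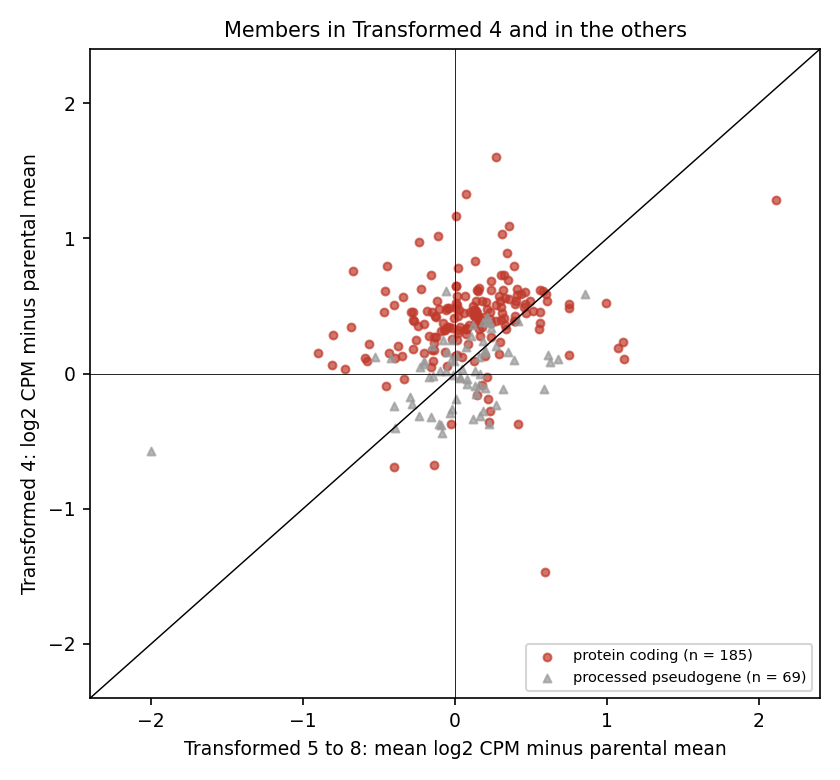
Each point is 1 member, with its mean log2 difference from the Parental mean over Transformed 5 to 8 on the horizontal axis and the difference in Transformed 4 on the vertical axis; the diagonal marks equal values. Of the 185 protein-coding members, 154 lie above the diagonal, and the pseudogenes scatter around it.

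Along the chromosome, the Transformed 4 value of protein-coding genes stayed near one level up to the limit of the region and was below 0 beyond it. In windows of 10 Mb the medians were 0.39 in the window starting at 0 Mb (15 genes), 0.43 at 10 Mb (25 genes), 0.34 at 20 Mb (12 genes), 0.43 at 30 Mb (14 genes), 0.45 at 40 Mb (81 genes), 0.47 at 50 Mb (23 genes) and 0.39 at 60 Mb (15 genes). Beyond it, Transformed 4 had -0.16 at 70 Mb (6 genes), -0.19 at 80 Mb (17 genes), -0.15 at 90 Mb (14 genes) and -0.15 at 100 Mb (48 genes). The 40 Mb window is the densest, and 73 of its 81 genes were higher in Transformed 4 than the mean of Transformed 5 to 8. In the 70 Mb window that count was 1 of 6.

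**Figure D3:**
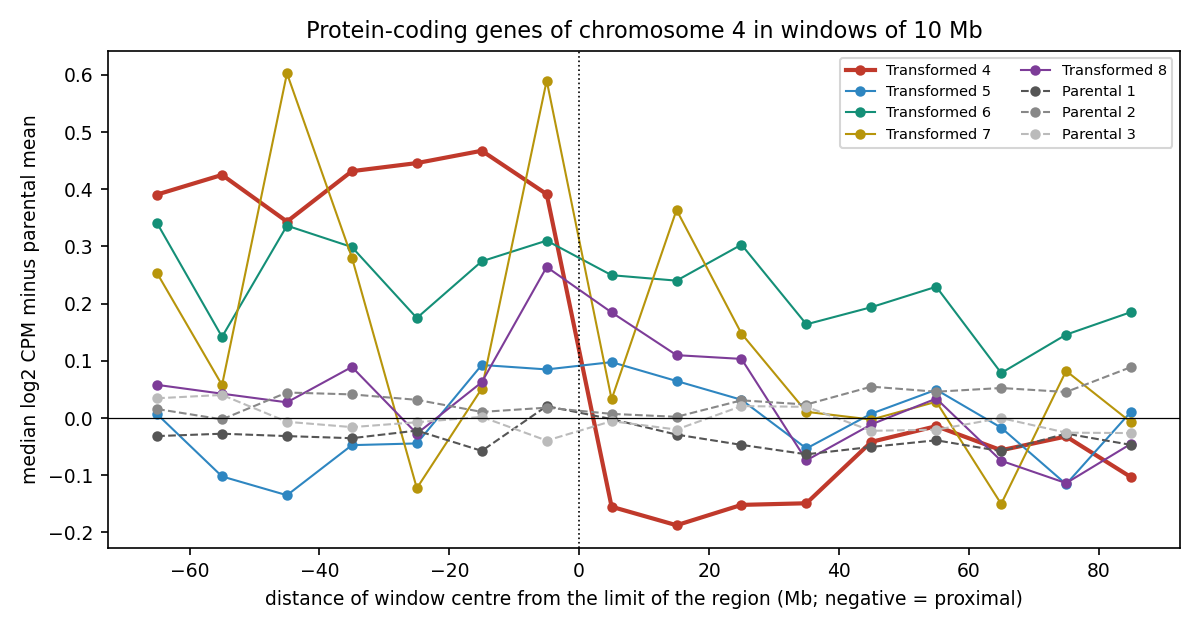
Median log2 CPM minus the Parental mean of protein-coding genes in windows of 10 Mb, by distance of the window centre from the limit of the region, with 1 line per library (dashed for Parental). Transformed 4 lies between 0.34 and 0.47 on the proximal side and between -0.19 and -0.014 beyond it.

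The other libraries took other courses along the windows. Transformed 5 ran from -0.13 to 0.093 over the proximal windows and Transformed 8 from -0.027 to 0.26. Transformed 7 moved unevenly, with 0.60 at 20 Mb, -0.12 at 40 Mb and 0.59 at 60 Mb, and then 0.033 at 70 Mb and 0.36 at 80 Mb. Transformed 6 had 0.14 to 0.34 over the proximal windows and 0.079 to 0.30 beyond. Windows with few genes rest on those genes.

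The limit of 70 Mb comes from the rule, and the genes nearest to it do not place an edge. Just inside lie Trim32 and Tlr4 and then the processed pseudogenes Gm11222, Gm11223 and Gm11224. Gm11222 (chr4:69853947-69854684) had 9.64 CPM in Transformed 4 and 9.53, 8.87, 7.34 and 9.71 CPM in Transformed 5 to 8, against 7.68, 9.61 and 8.002 CPM in Parental 1 to 3. Gm11223 (chr4:69925630-69926079) had 97.7 CPM in Transformed 4 and 104, 111, 69.6 and 96.7 CPM in Transformed 5 to 8, against 108, 111 and 125 CPM in Parental 1 to 3. Gm11224 (chr4:69954166-69955276) had 19.0 CPM in Transformed 4 and 23.9, 23.1, 40.2 and 26.3 CPM in Transformed 5 to 8, against 22.9, 16.3 and 15.5 CPM in Parental 1 to 3. None of the 3 had Transformed 4 as its highest library. Just outside, the processed pseudogene Gm11225 (chr4:70047157-70048205) had 2.85 CPM in Transformed 4 and 2.24, 2.33, 2.3995 and 3.07 CPM in Transformed 5 to 8, against 1.92, 1.84 and 2.08 CPM in Parental 1 to 3. Cdk5rap2 (chr4:70216856-70410443), whose human product acts at the centrosome, had 57.4 CPM in Transformed 4 and 65.0, 67.4, 61.2 and 57.8 CPM in Transformed 5 to 8, against 67.1, 69.3 and 69.9 CPM in Parental 1 to 3. Transformed 4 and 8 were the lowest libraries for Cdk5rap2, at -0.26 and -0.25 on the log2 scale from the Parental mean. The transcribed processed pseudogene Ywhaq-ps3, also just outside, had 0.056 in Transformed 4 on that scale. Tle1 (chr4:72117142-72200919), a transcriptional corepressor further out, had 95.5 CPM in Transformed 4, against 55.5, 55.8 and 55.7 CPM in Parental 1 to 3. Transformed 5 to 8 had 71.7, 75.4, 59.3 and 62.4 CPM, so a gene higher in Transformed 4 also lay beyond the limit. The other protein-coding genes of the 70 Mb window went the other way. In Transformed 4, Megf9, Aldoart1, Kdm4c and Dmac1 had -0.049, -0.043, -0.60 and -0.90 from the Parental mean.

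Among all chromosomes Transformed 4 also had medians of 0.31 on chromosome 14 and 0.20 on chromosome 15, where Transformed 5 to 8 had 0.037 to 0.098 and -0.11 to 0.017. It was lower on chromosome 9, at -0.14, and on chromosome 18, at -0.26, where Transformed 5 to 8 had -0.0052 to 0.0063 and 0.059 to 0.12. On chromosome 2 it had 0.056, where Transformed 5 to 8 had -0.25 to -0.22. Other departures from 0 were shared by all Transformed libraries. Transformed 4 had 0.18 on chromosome 7, -0.17 on chromosome 16 and -0.28 on chromosome 19. Transformed 5 to 8 had 0.13 to 0.16, -0.18 to -0.14 and -0.41 to -0.31 there. Parental 1 to 3 had 0.080, -0.017 and -0.071 on chromosome 7 and -0.020, 0.0074 and 0.0081 on chromosome 19. On chromosome 16 they had -0.18, 0.043 and 0.12, so Parental 1 lay within the Transformed values there. The median of all genes at the level was near 0 in every library.

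The edgeR quasi-likelihood fit over all 17733 tested genes, with Benjamini-Hochberg adjustment, called 5 of the 269 members higher in Transformed libraries and 0 lower. With lane as a covariate it called 0 members, where 0.530% of all genes were called, so all 5 were lost. Without that covariate 3.01% of all tested genes were called, 0.908% higher and 2.10% lower. At an unadjusted p under 0.05 it had 49 members (18.2%), where 22.2% of all tested genes had, and DESeq2 called 21 higher and 1 lower, where it called 4.54% and 5.72% of all its genes. The median log2 fold change of the members was 0.13, with 189 of 269 positive (70.3%), beside 0.017 and 52.3% over all tested genes. Because the contrast chose the region, nothing is read from these counts. All 5 Transformed libraries were above all 3 Parental libraries for 34 members, where 8.60% of all genes at the level had this arrangement, and below them for 4 (Trmo and the Gm-named genes Gm11810, Gm12430 and Gm12466, listed after their values were seen), where 10.2% had. Leaving out Transformed 4, the fit called 18 higher and 8 lower, where 6.25% and 9.26% of all genes were called, and leaving out Transformed 7 it called 18 higher and 0 lower, where 2.87% and 4.76% of all were called. Without both, an alternative chosen after seeing the data, it called 46 higher and 16 lower, where 12.8% and 16.1% of all were called (28.9% in either direction). Within lane 6 alone it called 33 higher and 18 lower, where 9.60% and 10.8% of all were called, and within lane 7 alone it called 0 of the members and 0.0% of all genes, with 6 members (2.23%) and 2.72% of all genes at an unadjusted p under 0.05. Leaving out Parental 1, Parental 3, Transformed 6 or Transformed 8 gave 0 calls among the members, where 0.415%, 0.144%, 0.380% and 0.424% of all genes were called. At an unadjusted p under 0.05 these fits had 32, 26, 42 and 39 members (11.9%, 9.67%, 15.6% and 14.5%), where 16.6%, 13.1%, 18.5% and 18.2% of all genes had. With no low-count filter it called 3 higher, where 1.57% of all genes were called.

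The 5 genes called without the lane covariate were alike in that all Transformed libraries exceeded all Parental libraries, and Transformed 4 was the highest of them for Ecpas alone. Ripk2 (chr4:16122733-16163647, minus strand, ENSMUSG00000041135), the kinase downstream of the NOD receptors, had 19.3 CPM in Transformed 4 and 19.3, 28.6, 34.6 and 26.6 CPM in Transformed 5 to 8, against 12.6, 13.6 and 14.1 CPM in Parental 1 to 3. Its log2 fold change was 0.93 ± 0.20 (SE, n = 5 Transformed and 3 Parental libraries). Transformed 7 was highest and Transformed 4 and 5 the lowest of the Transformed libraries. Mdn1 (chr4:32657119-32775217, plus strand), the AAA ATPase midasin of large ribosomal subunit assembly, had 255 CPM in Transformed 4 and 259.8, 267, 256 and 245 CPM in Transformed 5 to 8, against 145, 203 and 165 CPM in Parental 1 to 3. The Transformed values spanned less than the Parental values. The log2 fold change of Mdn1 was 0.58 ± 0.11 (SE, n = 5 Transformed and 3 Parental libraries).

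The other 3 are on the list of protein folding, ubiquitin and secretory quality control. Ecpas (chr4:58798911-58912749, minus strand), an adaptor of the proteasome, had 274 CPM in Transformed 4 and 213, 261, 269.7 and 236 CPM in Transformed 5 to 8, against 188, 185 and 178 CPM in Parental 1 to 3. Dnajc25 (chr4:58995062-59025573, plus strand), a J-domain protein, had 10.3 CPM in Transformed 4 and 10.5, 12.1, 11.6 and 10.003 CPM in Transformed 5 to 8, against 7.62, 7.49 and 7.32 CPM in Parental 1 to 3. Trim32 (chr4:65604986-65616238, plus strand), a ubiquitin ligase, had 41.4 CPM in Transformed 4 and 35.6, 41.4, 44.3 and 38.0 CPM in Transformed 5 to 8, against 27.0, 27.6 and 26.2 CPM in Parental 1 to 3. In each the lowest Transformed library exceeded the highest Parental one. The log2 changes were 0.45 ± 0.10 for Ecpas, 0.54 ± 0.11 for Dnajc25 and 0.58 ± 0.098 for Trim32 (SE).

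**Figure D4:**
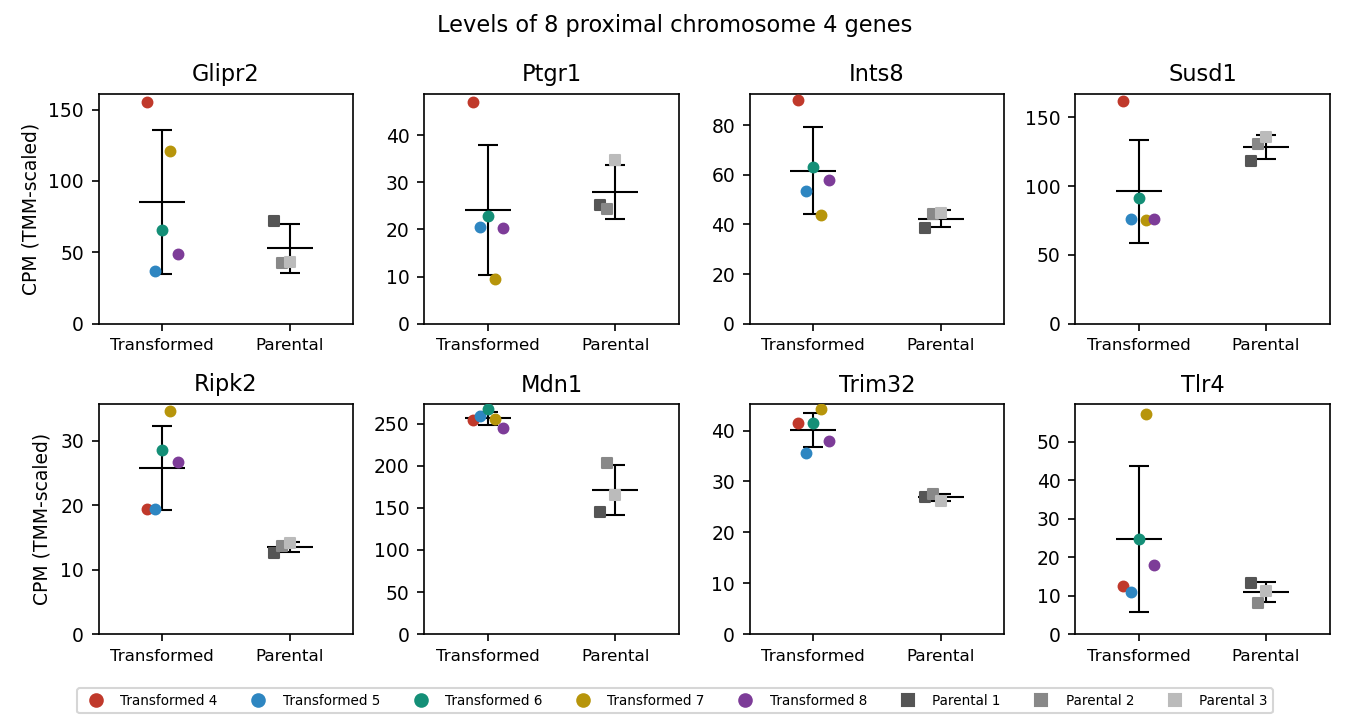
CPM of 8 members in each library, with Transformed left of Parental, and the mean and SD over libraries as bars. Glipr2, Ptgr1, Ints8 and Susd1 are highest in Transformed 4, Mdn1 and Trim32 are higher in all Transformed libraries, and Tlr4 and Ripk2 are highest in Transformed 7.

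The members with the largest excess of Transformed 4 over the other Transformed libraries, among those averaging 10 CPM or more, were Ptgr1, Glipr2, Cd72, Tmem64 and Ctnnal1. Ptgr1 (chr4:58965439-58987119), a prostaglandin reductase, had 47.01 CPM in Transformed 4 and 20.5, 22.9, 9.54 and 20.4 CPM in Transformed 5 to 8, against 25.2, 24.3 and 34.7 CPM in Parental 1 to 3. Its log2 difference was 1.43, and Transformed 7 was the lowest library. Glipr2 (chr4:43957401-43979118), a Golgi-associated protein, had 155 CPM in Transformed 4 and 37.2, 65.7, 121 and 48.6 CPM in Transformed 5 to 8, against 72.2, 42.7 and 43.1 CPM in Parental 1 to 3. Transformed 7 was the next highest, with Transformed 6 and 8 inside the Parental range and Transformed 5 below it. Cd72, an inhibitory receptor of B cells, had 20.8 CPM in Transformed 4 and 7.90, 9.40, 10.2 and 7.32 CPM in Transformed 5 to 8, against 8.58, 7.69 and 8.44 CPM in Parental 1 to 3. Transformed 4 stood alone there, at 2.39 times the mean of the others. Tmem64 had 95.6 CPM in Transformed 4 and 34.4, 46.2, 47.8 and 38.1 CPM in Transformed 5 to 8, against 46.1, 49.8 and 50.2 CPM in Parental 1 to 3. Transformed 5 and 8 were below the Parental range, Transformed 6 and 7 within it and Transformed 4 above it. Ctnnal1, an alpha-catenin-like protein, had 24.7 CPM in Transformed 4 and 13.0, 14.8, 7.14 and 11.9 CPM in Transformed 5 to 8, against 11.9, 12.3 and 12.3 CPM in Parental 1 to 3, with Transformed 7 the lowest.

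A second pattern was a level lower in Transformed 5 to 8 than in Parental cells while Transformed 4 was higher than those 4. Susd1 had 162 CPM in Transformed 4 and 75.8, 91.6, 75.4 and 75.8 CPM in Transformed 5 to 8, against 119, 130.3 and 135 CPM in Parental 1 to 3. B4galt1, a Golgi galactosyltransferase, had 105 CPM in Transformed 4 and 50.8, 59.7, 57.2 and 53.9 CPM in Transformed 5 to 8, against 80.5, 73.7 and 75.6 CPM in Parental 1 to 3. Abca1, the exporter of cellular cholesterol, had 119 CPM in Transformed 4 and 63.7, 72.8, 85.3 and 62.4 CPM in Transformed 5 to 8, against 106, 104 and 143 CPM in Parental 1 to 3. Transformed 4 was above the Parental range for Susd1 and B4galt1 and inside it for Abca1. Gba2, a glucosylceramidase outside lysosomes, had 33.7 CPM in Transformed 4 and 20.7, 22.5, 17.8 and 17.7 CPM in Transformed 5 to 8, against 27.2, 30.1 and 29.8 CPM in Parental 1 to 3. Over all libraries edgeR called none of these 4. They were put together after their values were seen, and no test of the pattern is given.

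Signalling genes formed a list of 28 symbols, 15 of them members. It had 1 called higher (Ripk2), 0 lower and a median log2 fold change of 0.22. Transformed 4 was above the mean of the other Transformed libraries for 11 of the 15. For this and each role list below, 0.908% of all tested genes were called higher and 2.10% lower. Transformed 4 was above the others for 51.1% of all genes at the level and 83.2% of the protein-coding members (154 of 185). No list was tested against these shares. Lyn, a Src-family kinase, had 146 CPM in Transformed 4 and 75.5, 97.7, 167 and 90.3 CPM in Transformed 5 to 8, against 102, 94.8 and 97.4 CPM in Parental 1 to 3. Lyn was thus highest in Transformed 7 and Transformed 4, with Transformed 5 and 8 below the Parental libraries. Tlr4, the receptor for lipopolysaccharide, had 12.6 CPM in Transformed 4 and 11.0, 24.8, 57.3 and 18.0 CPM in Transformed 5 to 8, against 13.4, 8.15 and 11.2 CPM in Parental 1 to 3. Transformed 7 was far above all others, and the Tlr4 groups overlapped. Ddx58, the RNA sensor RIG-I, had 42.5 CPM in Transformed 4 and 30.9, 50.5, 69.7 and 36.4 CPM in Transformed 5 to 8, against 37.3, 26.4 and 25.6 CPM in Parental 1 to 3. Akna, an AT-hook protein, had 25.6 CPM in Transformed 4 and 23.5, 46.9, 85.1 and 40.5 CPM in Transformed 5 to 8, against 40.3, 25.5 and 35.5 CPM in Parental 1 to 3. Both were highest in Transformed 7, and Akna was among the lowest members in Transformed 4 beside the others. Map3k7, the kinase TAK1, had 125 CPM in Transformed 4 and 103, 120.5, 104 and 103 CPM in Transformed 5 to 8, against 95.7, 108 and 103 CPM in Parental 1 to 3, a narrow range.

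Genes of RNA transcription, processing and ribosome assembly gave 21 members of 23 symbols, with 1 called higher (Mdn1), 0 lower and a median log2 fold change of 0.27. Transformed 4 was above the mean of the others for 20 of the 21, where this held for 83.2% of all protein-coding members. Ints8, a subunit of the Integrator complex, had 90.1 CPM in Transformed 4 and 53.5, 63.2, 43.6 and 57.9 CPM in Transformed 5 to 8, against 38.3, 44.0 and 44.5 CPM in Parental 1 to 3. Tgs1, which makes the trimethylguanosine cap of small nuclear RNAs, had 122 CPM in Transformed 4 and 72.8, 87.2, 93.4 and 79.3 CPM in Transformed 5 to 8, against 64.3, 65.4 and 66.8 CPM in Parental 1 to 3. Both were highest in Transformed 4, and for Tgs1 every Transformed library exceeded every Parental one. Nfx1 had 207 CPM in Transformed 4 and 154, 175, 191 and 155 CPM in Transformed 5 to 8, against 139.7, 136 and 129.9 CPM in Parental 1 to 3, with the same arrangement. Ptbp3, an RNA-binding protein of the polypyrimidine tract family, had 536 CPM in Transformed 4 and 299, 424, 376 and 354 CPM in Transformed 5 to 8, against 427, 404 and 416 CPM in Parental 1 to 3, Transformed 4 being highest and Transformed 5 lowest. Rps20, a protein of the small ribosomal subunit, had 872 CPM in Transformed 4 and 630.5, 795, 706 and 626 CPM in Transformed 5 to 8, against 596, 648 and 640.5 CPM in Parental 1 to 3. Pnisr, an SR-related protein, had 294 CPM in Transformed 4 and 201, 253, 214 and 169 CPM in Transformed 5 to 8, against 259, 243 and 241 CPM in Parental 1 to 3; Transformed 5, 7 and 8 were below the Parental range.

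Genes of protein folding, ubiquitin and secretory quality control gave 27 members of 28 symbols. The fit called 3 higher (Ecpas, Dnajc25 and Trim32) and 0 lower, with a median log2 fold change of 0.19. Transformed 4 was above the mean of the others for 23 of the 27, where this held for 83.2% of all protein-coding members. Vcp, an AAA ATPase that extracts ubiquitinated proteins, had 361 CPM in Transformed 4 and 313, 340.0, 242 and 320.0 CPM in Transformed 5 to 8, against 251, 291 and 268 CPM in Parental 1 to 3. Sec61b, a subunit of the protein channel of the endoplasmic reticulum, had 104 CPM in Transformed 4 and 85.2, 97.8, 92.4 and 88.5 CPM in Transformed 5 to 8, against 67.9, 74.8 and 70.9 CPM in Parental 1 to 3. Sec61b was higher in all Transformed than in all Parental libraries, while the Vcp groups overlapped through Transformed 7. Rad23b, a shuttle of ubiquitinated proteins to the proteasome, had 370.1 CPM in Transformed 4 and 343, 362, 298 and 363 CPM in Transformed 5 to 8, against 240.2, 281 and 257 CPM in Parental 1 to 3, without overlap.

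Cell cycle, replication and repair genes gave 17 members of 18 symbols, with 0 called by edgeR and a median log2 fold change of 0.043. Transformed 4 was above the mean of the others for 14 of the 17, where this held for 83.2% of all protein-coding members. Fancg, of the Fanconi anaemia complex, had 60.1 CPM in Transformed 4 and 38.1, 42.0, 33.0 and 31.5 CPM in Transformed 5 to 8, against 47.7, 40.1 and 44.0 CPM in Parental 1 to 3. Rad54b, of homologous recombination, had 41.2 CPM in Transformed 4 and 24.1, 29.6, 31.0 and 21.99 CPM in Transformed 5 to 8, against 29.5, 24.3 and 25.3 CPM in Parental 1 to 3. Mms22l, of replication fork repair, had 92.5 CPM in Transformed 4 and 62.1, 72.7, 49.4 and 62.7 CPM in Transformed 5 to 8, against 69.6, 73.7 and 73.9 CPM in Parental 1 to 3. All 3 were highest in Transformed 4, with the other Transformed libraries below, within or slightly above the Parental range. Smc2, a condensin subunit, had 228 CPM in Transformed 4 and 165, 214, 189.5 and 186 CPM in Transformed 5 to 8, against 189, 193 and 189 CPM in Parental 1 to 3. Ccne2, cyclin E2, had 13.8 CPM in Transformed 4 and 16.0, 19.7, 18.2 and 16.6 CPM in Transformed 5 to 8, against 16.0, 18.4 and 19.4 CPM in Parental 1 to 3 and was lowest in Transformed 4. At an unadjusted p under 0.05 edgeR had 1 of the 17, where 22.2% of all tested genes had. DESeq2 called 1 higher, where it called 4.54% of all its genes higher.

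Mitochondrial and metabolic genes gave 22 members of 23 symbols, 0 called, with a median log2 fold change of 0.13. Transformed 4 was above the mean of the others for 20 of the 22, where this held for 83.2% of all protein-coding members. Txn1, the cytosolic thioredoxin, had 422 CPM in Transformed 4 and 340.4, 359.7, 228 and 334 CPM in Transformed 5 to 8, against 299, 319 and 297 CPM in Parental 1 to 3, highest in Transformed 4 and lowest in Transformed 7. Alad, of haem synthesis, had 93.8 CPM in Transformed 4 and 84.4, 80.8, 56.1 and 70.8 CPM in Transformed 5 to 8, against 54.6, 72.4 and 57.9 CPM in Parental 1 to 3, with the same order at both ends except that Parental 1 was below Transformed 7. Ndufaf4, an assembly factor of complex I, had 32.1 CPM in Transformed 4 and 39.8, 40.2, 37.4 and 37.3 CPM in Transformed 5 to 8, against 17.0, 31.98 and 22.3 CPM in Parental 1 to 3, where Transformed 4 was the lowest Transformed library. The 21 members of the membrane traffic, transport and cytoskeleton list of 27 symbols had 0 called and a median of 0.18. Transformed 4 was above the mean of the others for 16 of these 21, beside the same 83.2%. Clta, a clathrin light chain, had 173 CPM in Transformed 4 and 122, 131, 77.1 and 120.4 CPM in Transformed 5 to 8, against 121, 131 and 125 CPM in Parental 1 to 3. Tln1, which links integrins to actin, had 819 CPM in Transformed 4 and 561, 633, 869 and 572 CPM in Transformed 5 to 8, against 614, 609 and 570.0 CPM in Parental 1 to 3, highest in Transformed 7 and then Transformed 4. At an unadjusted p under 0.05 the first of these lists had 3 members and the second 4, where 22.2% of all tested genes had. DESeq2 called 1 higher in each, where it called 4.54% of all its genes higher.

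**Figure D5:**
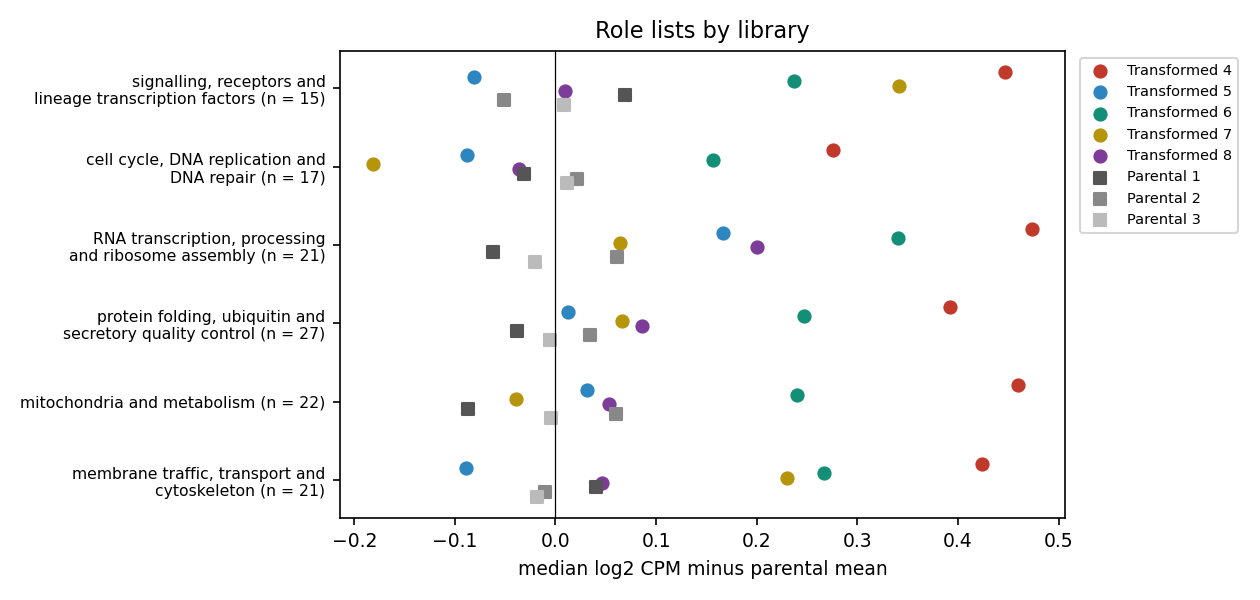
Median log2 CPM minus the Parental mean for each of 6 role lists, with 1 point per library. Transformed 4 is rightmost in all 6 lists, at 0.28 to 0.47.

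Transformed 7 departed from the Parental level in both directions. It was the highest of the 8 libraries for 62 members (23.0%) and the lowest for 65 (24.2%), below the 27.2% and 28.3% of all genes at the level, so these counts are not particular to the region. Osgin2 had 24.9 CPM in Transformed 4 and 20.2, 36.5, 95.8 and 29.7 CPM in Transformed 5 to 8, against 29.2, 19.8 and 20.1 CPM in Parental 1 to 3. C9orf72, whose human gene carries the repeat expansion of amyotrophic lateral sclerosis, had 7.13 CPM in Transformed 4 and 6.97, 11.99, 30.1 and 16.8 CPM in Transformed 5 to 8, against 8.31, 5.995 and 5.85 CPM in Parental 1 to 3. Rusc2 had 2.89 CPM in Transformed 4 and 2.86, 5.30, 9.31 and 5.90 CPM in Transformed 5 to 8, against 2.80, 2.04 and 2.85 CPM in Parental 1 to 3. In all 3 Transformed 4 was close to the Parental values and Transformed 7 the highest. Arhgef39 had 43.4 CPM in Transformed 4 and 28.0, 25.9, 12.2 and 19.6 CPM in Transformed 5 to 8, against 33.8, 37.5 and 35.7 CPM in Parental 1 to 3, with Transformed 7 lowest and Transformed 4 highest. Asph, an aspartate hydroxylase of the endoplasmic reticulum, had 84.9 CPM in Transformed 4 and 107, 141, 132 and 107 CPM in Transformed 5 to 8, against 112, 102 and 95.3 CPM in Parental 1 to 3, and here Transformed 4 was the lowest library.

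Simple gene properties were set beside the values. Over the 185 protein-coding members, the Spearman correlation of the Transformed 4 excess over the other Transformed libraries was 0.010 with mean CPM, -0.022 with exon length, 0.028 with start position and 0.25 with GC content. Over all 269 members, pseudogenes included, it was 0.20 with mean CPM, 0.26 with exon length, 0.030 with start position and 0.15 with GC content. All come from the same 5 libraries and are a description. The processed pseudogene Gm12918 (chr4:10848420-10849055) had 433 CPM in Transformed 4 and 336, 346, 335 and 333 CPM in Transformed 5 to 8, against 368, 398 and 361 CPM in Parental 1 to 3. Transformed 4 was its highest library and the other Transformed libraries were below the Parental ones. Anp32b, an acidic nuclear chaperone, had 697 CPM in Transformed 4 and 613, 654, 567 and 649.5 CPM in Transformed 5 to 8, against 548, 545 and 555 CPM in Parental 1 to 3, with every Transformed library above every Parental one.

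Some genes of the role lists lie in the region but below the level. Pax5, the B cell transcription factor, had at most 2 counts in any library and Klf4 had 0 in all. Chd7 (chr4:8690406-8867659), a chromatin remodeller picked out after its values were seen, had 108 counts in Transformed 4 (2.18 CPM) and 0, 1, 2 and 1 in Transformed 5 to 8, against 1, 1 and 3 counts in Parental 1 to 3. It was the 1 gene of the region with at least 30 counts in a single library and at most 5 in each other. Over the whole table Transformed 4 had 12 such genes, Transformed 7 had 12 and Parental 3 had 12.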

How the data were processed

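PolyA RNA of 8 libraries was counted per Ensembl gene. The deposited table holds raw read counts, not normalised, with 1 column per library, and 0 columns fall outside the 8 libraries. STAR 2.5.3a and featureCounts 1.5.3, with mm10 and GRCm38.p5 as builds, are named without roles in the submitters' processing notes. Strandedness, multiple mapping and annotation release were not given in the sources used here, which leaves counts of pseudogenes, paralogs and overlapping or antisense genes uncertain.

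Coordinates (GRCm38) and gene types were looked up by Ensembl identifier in GENCODE. It lacked 105 identifiers of the table, which held 0.021% of all counts. Log2 CPM used TMM factors and a prior count of 2, and CPM values are TMM-scaled. The level of 0.5 CPM was set on library totals. For each gene the mean of the 3 Parental libraries was subtracted, and medians were taken over genes and over windows of 10 Mb. Differences between groups were fitted by edgeR 4.0.16, run in R 4.3.3, with its robust quasi-likelihood test (2-sided, filterByExpr, TMM) over 17733 genes, with Benjamini-Hochberg adjustment and a threshold of 0.05, and the common biological coefficient of variation was 0.230. The SE printed with a fold change is the absolute log2 fold change divided by the square root of the F statistic of that test. Every pair of libraries within a group differed by more than counting noise. The chi-square per degree of freedom was at least 18.0 over genes with 50 counts or more. Total counts of 36122062 to 50305573 set the precision, and a count of 0 allows up to 3 counts. Such limits cover counting error only.

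The members, gene lists and tests were chosen with earlier results of these data known. Genes named are members of the role lists; the 10 with the highest mean CPM; at 10 CPM or more, the 5 highest and 5 lowest fold changes and the 5 highest and 5 lowest values of Transformed 4 minus the other Transformed libraries; the 3 genes nearest to 70 Mb on each side; and the highest of each window. Tle1, Chd7, Trmo and 3 predicted genes listed with it were chosen after their values were seen. The other protein-coding genes of the window starting at 70 Mb were named beside Tle1. Alternatives were DESeq2 1.42.0, RLE factors, no low-count filter, lane as a covariate, each lane alone, library totals without factors, another prior count or level, means over genes, protein-coding genes alone and each library left out. Promoter sequences are RefSeq's, of GRCm38.p6.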

Additional observations from a re-analysis of the deposited data

Results flagged for a closer look

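In 55 groups of Transformed values examined (the regional medians and the members named above), 8 had a library whose gap to the next was more than 0.71 of the whole range, the 95% limit for 5 samples, and chance marks about 1 in 20 groups. The excess of the members over the rest of chromosome 4 was 0.39 on the log2 scale in Transformed 4. This is the value the region was chosen on, given as a description with nothing read from it. Among single genes, Transformed 4 was set apart as the highest library for Cd72 with 20.8 CPM, Tmem64 with 95.6 CPM, Susd1 with 162 CPM, B4galt1 with 105 CPM and the processed pseudogene Gm12918 with 433 CPM. Transformed 7 was set apart as the highest for Osgin2 with 95.8 CPM, and Transformed 6 as the lowest for the pseudogene Gm12430 with 1.21 CPM. The groups include the regional medians used in that choice and genes named for extreme values, so the share of groups set apart cannot be read against that rate.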

How the results depend on the processing

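No paired analysis was possible because the groups share no replicate numbers. The median of Transformed 4 stayed above 0 under every alternative tried, while those of Transformed 5 and 7 lay near 0 and changed sign under some. Values below are medians on the log2 scale, with those in excess of the rest of chromosome 4 named as excess. A value was taken to have moved when it changed by more than the SD over Parental libraries (0.019, and 0.018 for the excess). For Transformed 4 over the other Transformed libraries, the wider SD of the medians of those other libraries (0.069) was used instead. That value was 0.23, with 0.19 to 0.26 on leaving out each other Transformed library. It was 0.20 as means over genes and 0.25 at a mean CPM of 5 or more. These changes did not count as moved under the wider limit. With library totals, Transformed 4 had 0.32, Transformed 7 -0.0037 and Transformed 8 0.015. At a mean CPM of 5 or more, Transformed 4 had 0.37 (excess 0.42) and Transformed 7 0.029 (excess 0.059). As means over genes, Transformed 4 had 0.28 (excess 0.31), Transformed 5 -0.017 (excess 0.024), Transformed 7 0.11 (excess 0.13), and the excess was 0.051 in Transformed 6 and 0.10 in Transformed 8. With protein-coding genes alone, Transformed 4 had 0.42 (excess 0.47), Transformed 5 -0.038 (excess -0.042) and Transformed 6 0.24 (excess 0.064), and Transformed 4 over the other Transformed libraries was 0.31. Leaving out each Parental library in turn gave 0.31 to 0.36 in Transformed 4, 0.14 to 0.18 in Transformed 6 and 0.011 to 0.070 in Transformed 7, with an excess of -0.029 to 0.017 in Transformed 5 and 0.043 to 0.087 in Transformed 7.

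The count of members called depended on the fit, and the cause was not tested. DESeq2 called 21 higher and 1 lower, edgeR with no low-count filter 3 higher (0.428% of all genes called higher), lane as a covariate 0 (0.530% of all genes called in either direction, with 36 members, or 13.4%, and 19.0% of all genes at an unadjusted p under 0.05), lane 6 alone 33 higher and 18 lower, and lane 7 alone 0 (0 of all genes), where the lone Parental library was taken to vary like the others. Leaving out 1 library in turn gave 0 to 18 higher and 0 to 8 lower, with 18 higher without Transformed 4 and also without Transformed 7. Without both together, chosen after seeing the data, it was 46 higher and 16 lower. For the role lists, DESeq2 called higher 1 of 15 for signalling, 1 of 17 for cell cycle and 3 of 21 for RNA. It called higher 6 of 27 for protein folding, 1 of 22 for mitochondria and 1 of 21 for membrane traffic, where it called 4.54% of all its genes higher. Without Transformed 4 edgeR called 6.25% of all genes higher and 9.26% lower. It then called higher 1 of 15 for signalling, 1 of 17 for cell cycle and 2 of 21 for RNA. For protein folding it called 5 higher and 1 lower of 27, and for mitochondria 1 higher and 1 lower of 22. For membrane traffic it called 0 higher and 2 lower of 21. No list was tested against these shares. Depth limits the genes near 0.5 CPM most.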
